A study of Mus musculus with 32 samples.

Results

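The 41 genes described here encode the machinery that copies DNA in S phase. They were listed by gene symbol, with earlier results of these data known, and all 41 were found among the 20234 genes of the deposited count table. They fall into 7 roles: 2 transcription factors of the E2F family, 11 origin licensing factors (counted with Mcm10, which acts at the next step), 5 factors that activate the helicase, 9 subunits of DNA polymerases and primase, 9 proteins of the sliding clamp, its loader and the single-strand binding complex, 2 enzymes that finish the lagging strand, and 3 enzymes that make deoxynucleotides.

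All samples were fibroblasts, the cells that lay down connective tissue, taken from mouse embryos (MEFs). Thapsigargin, which empties the calcium store of the endoplasmic reticulum and so disturbs protein folding there, was given for 0 h (control), 1 h or 16 h. A further group had 16 h of thapsigargin with an inhibitor of the stress kinase PERK present in the last 4 h, and is called 16 h + PERKi below. No label used here names the inhibitor, states how much of either agent was added or gives a genotype for the cells. Each condition had 4 samples, and each sample gave 1 library of cytosolic RNA and 1 of polysome RNA, which is the part of it that sedimented with more than 4 ribosomes. The study asked how gene expression and translation differ between early stress, long stress, and long stress with PERK blocked.

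Before S phase, the origin recognition complex (ORC) with CDC6 and CDT1 loads the ring of MCM2 to MCM7 proteins onto DNA, a step called licensing. CDC45 and the GINS complex then turn that ring into a working helicase, primase and polymerase alpha start each strand, polymerases epsilon and delta extend them, and PCNA, a ring set on DNA by the RFC loader, holds the polymerases in place. Many of these genes are known targets of E2F factors, which are released from the RB protein when cells are driven into the cycle by growth factors. PERK phosphorylates the translation factor eIF2, which lowers protein synthesis in general, and its activity is known to hold stressed cells before S phase.

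Libraries held 19317276 to 34966246 counts for cytosolic RNA and 21160092 to 41776027 for polysome RNA. In control cells 10 of 12 fibroblast markers exceeded 1 CPM (a gene's count scaled to a library total of 1000000), Lum and Dcn being the exceptions. No marker of 6 epithelial, 4 endothelial or 4 muscle genes exceeded 1 CPM, nor did the pan-leukocyte marker Ptprc, while Cd14, Cd68, Map2 and Tubb3 did. All values are shares of a library, so a loss of polysomes from the whole cell does not show in them, and fewer cells in S phase cannot be told apart from less RNA per cell. Nothing in the labels ties the 4 replicates to separate cultures, so each p-value reflects only how these samples spread. The use of strand in counting is not given here, so reads from a gene and from one that overlaps it cannot be told apart. A gene was called higher or lower at an adjusted p under 0.05 in edgeR's quasi-likelihood test, over all 12366 genes tested in cytosolic RNA and 12065 in polysome RNA. Translational efficiency (TE) here means the ratio of polysome to cytosolic RNA, tested over 12561 genes as an effect of condition that differs between the 2 kinds of RNA. All 41 genes passed the low-count filter in all 3 tests.

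Because many of these genes are textbook E2F targets, their promoters were searched for 4 forms of the E2F site, TTTGGCGC, TTTCCCGC, TTTGCCGC and TTTCGCGC, on both strands, from 250 bases before to 50 after the start of the gene in RefSeq (GRCm38.p6). Of the 34 genes with a promoter in the table, 15 (44.1%) held at least 1 of these forms, against 704 of all 27025 genes (2.6%). By promoter, the shares were 15 of 40 (37.5%) and 744 of 32851 (2.26%). These backgrounds hold every gene of the promoter table, whether or not it was tested here, while the replication genes all passed the low-count filter. Of the stretches before the start site, 1 is shown for each of 8 genes whose values are given later (Mcm6 holds a second, not shown), with the motif letters in capitals and each read 5′ to 3′ along the gene's own strand. In Mcm5 and Mcm6, a pair of forms on opposite strands overlaps in 1 run of capitals.
Mcm5 (chr8:75109330-75109393, + strand): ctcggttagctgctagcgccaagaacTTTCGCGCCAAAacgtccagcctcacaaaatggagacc
Mcm6 (chr1:128359778-128359841, - strand): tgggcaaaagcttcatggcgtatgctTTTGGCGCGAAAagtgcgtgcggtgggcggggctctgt
Mcm7 (chr5:138172015-138172074, - strand): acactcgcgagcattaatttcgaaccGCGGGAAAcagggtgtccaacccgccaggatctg
Cdc6 (chr11:98907987-98908046, + strand): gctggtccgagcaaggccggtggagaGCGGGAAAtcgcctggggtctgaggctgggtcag
Orc1 (chr4:108579401-108579453, + strand): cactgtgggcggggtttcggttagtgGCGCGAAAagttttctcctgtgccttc
Gins3 (chr8:95633492-95633551, + strand): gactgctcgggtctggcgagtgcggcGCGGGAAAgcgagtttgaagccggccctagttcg
Pola1 (chrX:93632260-93632319, - strand): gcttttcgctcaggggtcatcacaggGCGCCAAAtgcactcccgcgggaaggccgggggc
Rfc3 (chr5:151651209-151651244, - strand): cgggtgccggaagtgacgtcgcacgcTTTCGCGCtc
A match describes the letters only, and its absence in the other 19 genes says nothing of their regulation. In cytosolic RNA, the median log2 change with PERK inhibitor over 16 h alone was 1.04 for the 15 genes with a motif and 1.03 for the 19 without.

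In cytosolic RNA the summed level of the replication genes was highest when PERK was inhibited late in stress. This sum was 3318 ± 42.7 CPM at 16 h + PERKi, against 2015 ± 22.5 CPM at 16 h (SD, n = 4 each). Over time without the inhibitor it was 1937 ± 28.1 CPM in control cells, 2578 ± 13.7 CPM at 1 h and 2015 ± 22.5 CPM at 16 h. The libraries of these groups did not overlap in this sum, although 16 h (1982 to 2032 CPM) lay close to control (1902 to 1969 CPM). In polysome RNA the sum was 3902 ± 52.9 CPM at 16 h + PERKi and 3237 ± 76.1 CPM at 16 h. Over time it was 2761 ± 70.8 CPM in control cells, 4027 ± 34.8 CPM at 1 h and 3237 ± 76.1 CPM at 16 h. These sums are descriptions with no test, and genes with long mRNAs weigh more in them. Not every gene followed the cytosolic sum. Some had a higher mean without the inhibitor than at 16 h + PERKi, such as Mcm2 and Mcm7 at 16 h and Pola1 and Pold1 at 1 h.

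**Figure D1:**
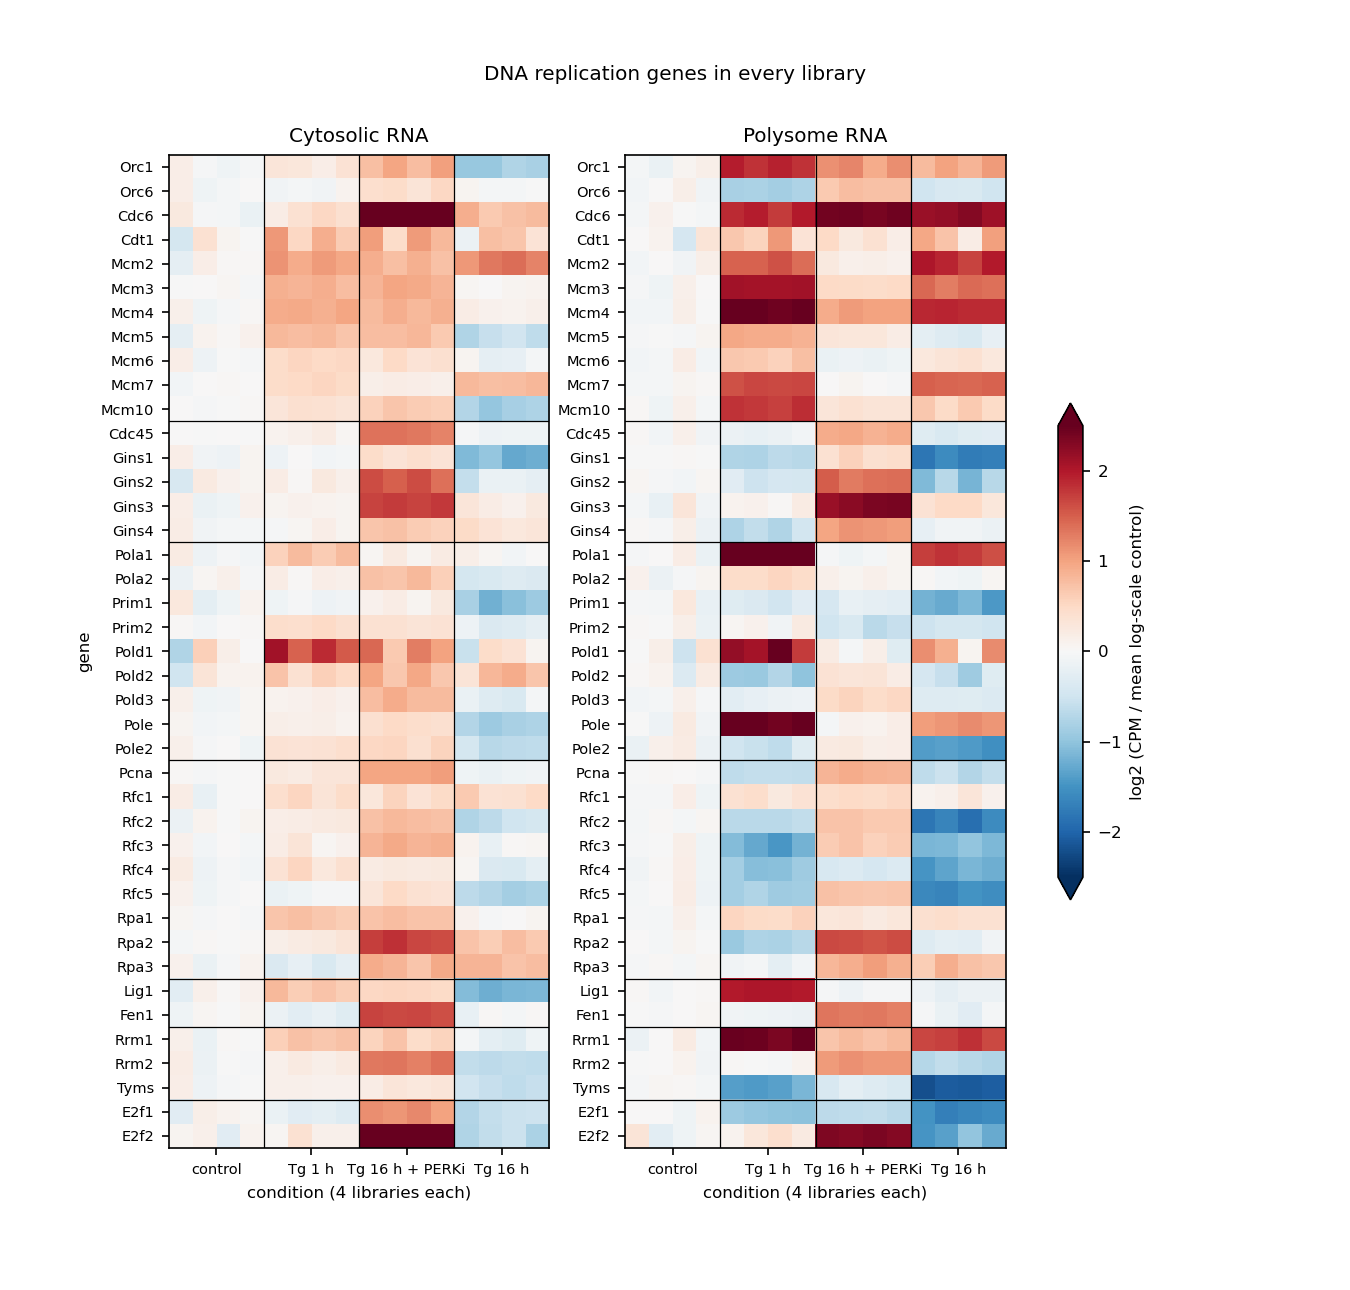
Each cell is 1 gene in 1 library, as log2 of its CPM over the mean of the 4 control libraries, with cytosolic RNA on the left and polysome RNA on the right; lines separate the roles and the conditions. In cytosolic RNA 16 h + PERKi is red in nearly all rows, with 39 of 41 genes called higher than control, while polysome RNA at 1 h and 16 h holds strong colours of both signs.

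With PERK inhibitor, cytosolic RNA of 34 of the 41 genes (82.9%) rose over 16 h alone, against 42.2% of all genes tested, and 2 (4.88%) fell, against 32.5%. A rise of at least 2-fold was called for 22 genes (53.7%), against 12.9% of all genes. The median log2 change was 1.04 for the 41 genes and 0.10 for all genes. In these 36 calls the 4 libraries of 16 h + PERKi and the 4 of 16 h did not overlap, as in 90.9% of the 9239 calls over all genes, and none of the 36 was lost when a library was left out. Against control, in a comparison that shares the inhibitor samples, the same group had 39 genes higher (95.1%, against 38.1% of all genes) and 0 lower, against 35.2% of all genes. The lowest log2 change of the 41 genes was 0.14, so the count of lower genes would be 0 at any p threshold. DESeq2, which shifted these changes by -0.041 to -0.039, also gave 0. The median log2 change was 0.76, against 0.04 for all genes.

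Stress alone gave an early rise and a later fall in cytosolic RNA. At 1 h, 27 of the 41 genes (65.9%) were higher than control, against 28.1% of all genes, and 3 (7.32%) were lower, against 28.1%. At 16 h, 10 (24.4%) were higher than control, against 37.9% of all genes, and 21 (51.2%) were lower, against 39.4%. In the direct test of 16 h over 1 h, 7 genes (17.1%) were higher, against 37.7% of all genes, and 29 (70.7%) were lower, against 37.7%. The median log2 changes of the 41 genes were 0.26 at 1 h, -0.12 at 16 h and -0.62 for 16 h over 1 h, beside 0.0031, -0.01 and 0.01 for all genes. The 1 h and 16 h comparisons share the control samples.

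**Figure D2:**
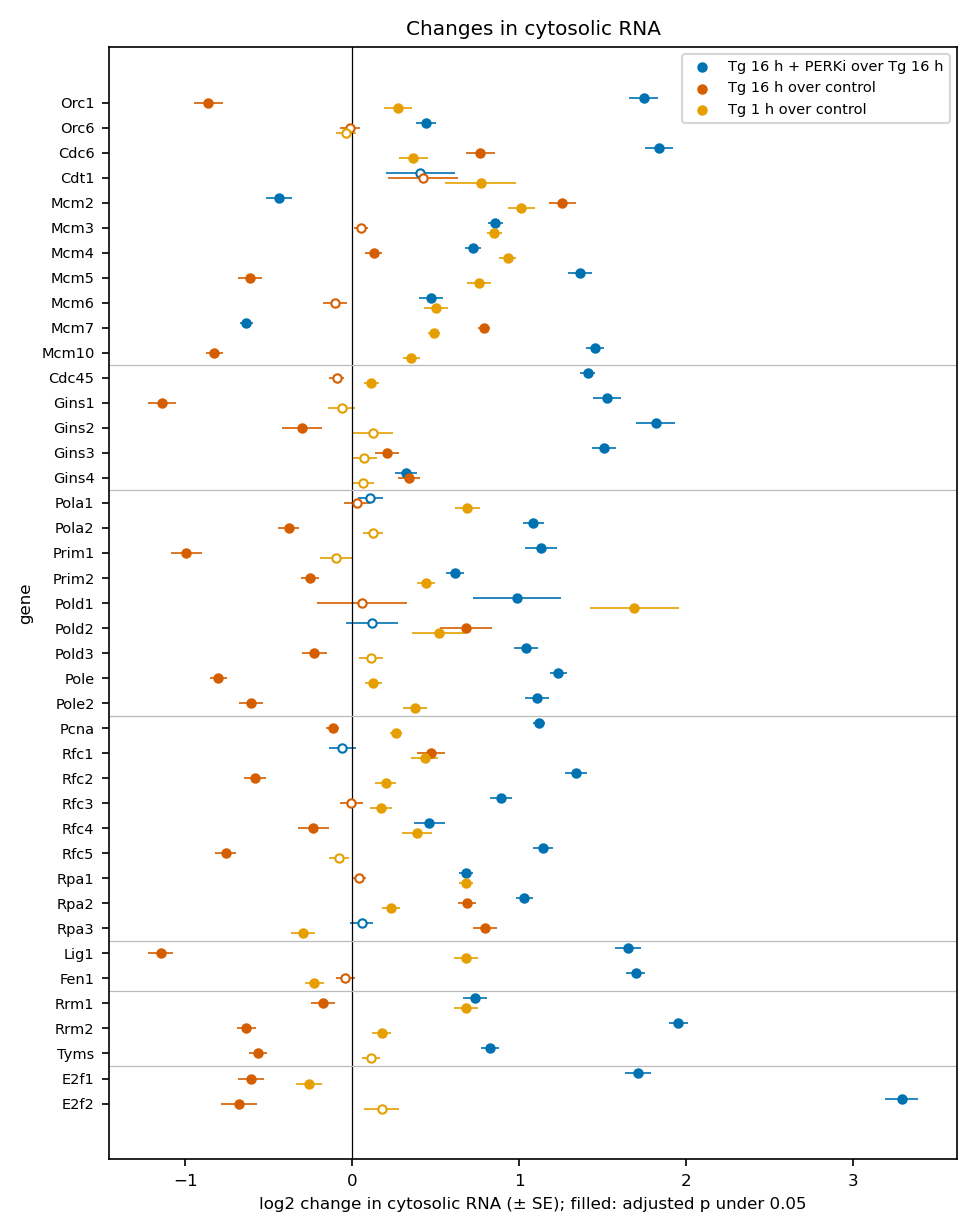
Log2 change in cytosolic RNA with its standard error for each of the 41 genes in 3 comparisons; filled points passed an adjusted p of 0.05. Blue points (16 h + PERKi over 16 h) lie to the right of 0 for all genes but Mcm2, Mcm7 and Rfc1, with E2f2 farthest at 3.29.

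In polysome RNA the 41 genes split by gene. At 1 h, 18 genes (43.9%) were higher than control and 18 (43.9%) lower, against 41.1% and 38.5% of all genes, so these shares lie near the background. At 16 h, 17 (41.5%) were higher and 22 (53.7%) lower, against 42.3% and 42.9% of all genes. From the direct test of 16 h over 1 h, 8 (19.5%) were higher and 29 (70.7%) lower, against 38.4% and 40% of all genes. With PERK inhibitor over 16 h, 28 (68.3%) were higher and 11 (26.8%) lower, against 42.1% and 40.7% of all genes. Against control the inhibitor group had 28 higher (68.3%) and 6 lower (14.6%), against 36.8% and 40.3% of all genes.

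Translational efficiency moved in both directions as well. At 1 h, TE of 12 genes (29.3%) was higher than control and of 20 (48.8%) lower, against 33.4% and 34.4% of all genes, and changes of at least 2-fold were called for 10 higher and 5 lower genes (24.4% and 12.2%), against 15% and 12%. At 16 h, TE was higher for 15 genes (36.6%) and lower for 18 (43.9%), against 31.1% and 33% of all genes, with 8 and 6 at 2-fold or more (19.5% and 14.6%), against 13.3% and 9.68%. With PERK inhibitor over 16 h, TE was higher for 15 (36.6%) and lower for 20 (48.8%), against 26.4% and 33.7% of all genes, with 2 and 11 at 2-fold or more (4.88% and 26.8%), against 3.1% and 12.7%. Between 16 h and 1 h, TE of 4 genes was higher (9.76%) and of 6 lower (14.6%), against 14.5% and 13.6% of all genes, and without 16 h replicate 1 the count of higher genes was 8. In that comparison 51.7% of the calls over all genes were higher, and 64.4% when only these conditions were fitted. Against control the inhibitor group had 4 genes with higher TE (9.76%) and 25 with lower TE (61%), against 16.3% and 27.1% of all genes, where the median of all genes was itself -0.12. The count of 4 was 2 without control replicate 1, without control replicate 4 or without 16 h + PERKi replicate 3, and the count of 25 was 15 after correction for coding length. It was 18 to 23 when 1 sample was left out, and 9 of the 25 calls were lost in some such fit. In that comparison 37.6% of the calls over all genes were higher, against 50.2% with size factors by relative log expression and 49.5% with DESeq2.

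E2f1 and E2f2 encode activating E2F transcription factors, and E2f2 (chr4:136172394-136196057, + strand, GRCm38) had the largest change of the 41 genes with the inhibitor over 16 h in both kinds of RNA. In cytosolic RNA E2f2 had 19.9, 20.4, 22.2 and 21.3 CPM at 16 h + PERKi, against 2.02, 2.21, 2.34 and 1.98 CPM at 16 h. It had 3.54, 4.41, 3.71 and 3.73 CPM at 1 h, against 3.55, 3.70, 2.80 and 3.64 CPM in control cells. The 4 inhibitor libraries stood far above all others, the 16 h libraries were the lowest, and 1 h and control overlapped. The log2 change with inhibitor over 16 h was 3.29 ± 0.10 (SE, adjusted p = 2.22e-14), and 16 h over control was -0.68 ± 0.11 (adjusted p = 2.06e-05). In polysome RNA E2f2 had 14.9, 14.5, 15.1 and 14.7 CPM at 16 h + PERKi, against 1.07, 1.17, 1.495 and 1.25 CPM at 16 h, a log2 change of 3.57 ± 0.12 (adjusted p = 1.85e-16). The groups did not overlap in polysome RNA either.

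E2f1 rose in cytosolic RNA with the inhibitor while its TE fell. Cytosolic E2f1 was 158, 152, 162 and 141.6 CPM at 16 h + PERKi, against 42.6, 46.6, 48.4 and 49.3 CPM at 16 h, with no overlap and a log2 change of 1.71 ± 0.08 (adjusted p = 3.29e-12). The polysome to cytosolic log2 ratio of E2f1 was -1.25, -1.21, -1.24 and -1.13 at 16 h + PERKi, against -0.26, -0.57, -0.50 and -0.55 at 16 h. Over time that ratio was 0.84, 0.46, 0.39 and 0.62 in control cells, -0.20, -0.20, -0.25 and -0.21 at 1 h and -0.26, -0.57, -0.50 and -0.55 at 16 h. Every inhibitor library lay below every 16 h library, and every stressed library below every control library. TE of E2f1 fell by 0.74 on the log2 scale with inhibitor over 16 h (SE 0.09, adjusted p = 9.73e-07), and the change over control was -1.78 ± 0.09 (adjusted p = 5.92e-11), the largest fall in TE of the 41 genes in that comparison.

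Among the 11 licensing genes, cytosolic RNA of 8 rose and of 2 fell at 16 h + PERKi over 16 h, against 42.2% and 32.5% of all genes. TE fell for 10 and rose for 1, Orc6, against 33.7% and 26.4% of all genes. The TE call of Cdt1 among these 10, at -0.80 ± 0.29, was lost without 16 h replicate 1 (-0.55) or 4 (-0.67), or without 16 h + PERKi replicate 1 (-0.79), 3 (-0.75) or 4 (-0.75), and after correction for coding length, as described further on (-0.65, adjusted p = 0.0781). The 2 that fell in cytosolic RNA were Mcm2 and Mcm7, both subunits of the MCM ring, with log2 changes of -0.44 ± 0.08 and -0.63 ± 0.04 (adjusted p = 9.64e-05 and 9.94e-11). In the 7 licensing genes whose TE rose over control at 1 h, against 33.4% of all genes, changes ran from 0.41 in Mcm2 to 1.53 in Orc1. The call of Mcm2 among them was lost after correction for coding length (0.03, adjusted p = 0.794), while the other 6 were still called higher.

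Cdc6 (chr11:98907801-98923940, + strand), the ATPase that loads MCM rings together with ORC, was higher in cytosolic RNA in every comparison. It had 81.7, 91.5, 87.9 and 84.1 CPM at 16 h + PERKi, against 26.5, 22.3, 23.5 and 24.4 CPM at 16 h. It had 16.1, 18.3, 20.1 and 18.7 CPM at 1 h, against 16.7, 13.9, 13.7 and 12.5 CPM in control cells. The inhibitor libraries were all above 80 CPM, the 16 h libraries above all control and 1 h libraries, and the 1 h and control libraries overlapped. The log2 change was 1.84 ± 0.08 with inhibitor over 16 h and 0.77 ± 0.09 for 16 h over control (adjusted p = 3.03e-12 and 2.88e-07). In polysome RNA Cdc6 was at 12.5, 13.99, 13.0 and 12.6 CPM in control cells, 47.3, 50.7, 43.8 and 51.7 CPM at 1 h and 57.9, 59.6, 64.4 and 57.0 CPM at 16 h. All stressed libraries exceeded all control libraries, and the log2 change in TE was 1.45 ± 0.12 at 1 h and 1.37 ± 0.12 at 16 h (adjusted p = 4.42e-09 and 8.78e-09). With the inhibitor over 16 h the TE change was -1.60 ± 0.11 (adjusted p = 8.33e-10). In polysome RNA Cdc6 had 69.3 ± 1.35 CPM at 16 h + PERKi and 59.7 ± 3.30 CPM at 16 h (SD, n = 4 each), a log2 change of 0.22 ± 0.06 (adjusted p = 0.00128).

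Orc1, the large ATPase subunit of ORC, fell in cytosolic RNA under long stress and rose with the inhibitor. It had 16.1, 18.96, 16.4 and 19.4 CPM at 16 h + PERKi, against 4.99, 4.99, 5.69 and 5.44 CPM at 16 h, with no overlap and a log2 change of 1.75 ± 0.09 (adjusted p = 8.05e-12). Its log2 polysome to cytosolic ratio was -1.08, -0.99, -0.68 and -0.66 in control cells, 0.76, 0.57, 0.81 and 0.52 at 1 h and 0.78, 1.02, 0.73 and 0.94 at 16 h. Stressed libraries were all above 0 and control libraries all below it. At 16 h + PERKi the ratio was -0.47, -0.66, -0.71 and -0.76, overlapping the control values, and TE over 16 h changed by -1.53 ± 0.12 (adjusted p = 3.76e-09). Orc6, the smallest ORC subunit, went the other way in TE, with 0.75 ± 0.09 for inhibitor over 16 h (adjusted p = 1.13e-06) and -0.83 ± 0.09 for 1 h over control (adjusted p = 2.6e-07).

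The 6 MCM ring genes together were higher in polysome RNA at 1 h and 16 h than in control cells, though Mcm5 alone fell below control at 16 h, with -0.29 ± 0.04 (adjusted p = 5.52e-06). Their summed polysome RNA was 772 ± 7.84 CPM at 16 h + PERKi, against 1480.0 ± 52.0 CPM at 16 h (SD, n = 4 each). Over time it was 684 ± 30.3 CPM in control cells, 1790.0 ± 6.35 CPM at 1 h and 1480.0 ± 52.0 CPM at 16 h. In cytosolic RNA the same sum was 746 ± 18.0 CPM at 16 h + PERKi and 650.1 ± 9.27 CPM at 16 h, and over time 488 ± 4.03, 811 ± 12.2 and 650.1 ± 9.27 CPM in control cells, at 1 h and at 16 h. The summed level of the inhibitor group was thus lower than at 16 h in polysome RNA and higher in cytosolic RNA.

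Polysome RNA of Mcm4 was 38.0, 38.3, 44.2 and 39.6 CPM in control cells, 225, 235, 215 and 234 CPM at 1 h and 144.8 to 149 CPM over the 4 libraries of 16 h, with no overlap of the 3 groups. At 16 h + PERKi it was 75.5, 83.5, 80.7 and 80.6 CPM, below all stressed libraries and above all control libraries. The log2 change in polysome RNA was 2.51 ± 0.05 at 1 h, 1.88 ± 0.05 at 16 h and -0.88 ± 0.05 with inhibitor over 16 h (adjusted p = 1.69e-19, 4.83e-18 and 8.54e-13). Its log2 ratio was -0.40, -0.12, -0.01 and -0.22 in control cells, 1.34, 1.34, 1.29 and 1.31 at 1 h and 1.44, 1.55, 1.59 and 1.47 at 16 h. All stressed libraries exceeded all control libraries, and the TE changes, in the order given for polysome RNA, were 1.51 ± 0.07, 1.70 ± 0.07 and -1.58 ± 0.07 (adjusted p = 2.72e-12, 8.97e-13 and 4.83e-12). Mcm3 was similar, with polysome RNA of 77.8, 73.7, 86.8 and 80.2 CPM in control cells, 342, 335, 336 and 341 CPM at 1 h and 214, 192, 211 and 206 CPM at 16 h. Its groups did not overlap either. The log2 ratio of Mcm3 was 0.22, 0.03, 0.09 and 0.19 at 16 h + PERKi, against 1.89, 1.79, 1.92 and 1.79 at 16 h, and TE with inhibitor over 16 h changed by -1.72 ± 0.07 (adjusted p = 8.73e-13).

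In cytosolic RNA Mcm2, Mcm7 and Mcm4 were called higher than control at 16 h, and the call of Mcm4, at 0.13 ± 0.05, was lost without control replicate 2 (0.09) or 3 (0.12) or without 16 h replicate 1 (0.11). Mcm2 had 68.3, 89.2, 81.2 and 81.5 CPM in control cells, 173, 152, 167 and 155 CPM at 1 h and 168, 199.5, 211 and 188 CPM at 16 h, with log2 changes over control of 1.01 ± 0.08 and 1.26 ± 0.08 (adjusted p = 1.52e-08 and 2.56e-10). Both stressed groups lay above control in every library and overlapped each other. In polysome RNA Mcm2 had 156 ± 6.41 CPM at 16 h + PERKi, against 525 ± 53.2 CPM at 16 h, a log2 change of -1.75 ± 0.07 (adjusted p = 1.83e-15). Mcm5, by contrast, fell in cytosolic RNA at 16 h, with 32.1, 36.3, 39.0 and 35.1 CPM, against 46.1, 57.5, 55.7 and 58.7 CPM in control cells. Its groups did not overlap, and the log2 change was -0.61 ± 0.07 (adjusted p = 6.48e-07), against 0.76 ± 0.07 at 1 h (adjusted p = 1.04e-07). At 1 h TE of Mcm5 and Mcm6 was at 0.09 ± 0.08 and 0.09 ± 0.10 over control (adjusted p = 0.29 and 0.46), neither called. Mcm6 had 161 ± 11.2 CPM in cytosolic RNA at 16 h + PERKi and 116.1 ± 11.1 CPM at 16 h, and in polysome RNA 211 ± 5.36 and 288 ± 11.2 CPM in the same order (SD, n = 4 each). Its change was thus 0.47 ± 0.07 in cytosolic and -0.45 ± 0.05 in polysome RNA (adjusted p = 1.28e-05 and 1.93e-07). Mcm7 ranged over 105 to 109.8 CPM in cytosolic RNA at 16 h + PERKi and 161 to 169.9 CPM at 16 h, and in polysome RNA over 80.01 to 86.2 and 221 to 229 CPM in the same order, with no overlap in either.

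Mcm10, a factor that works with the helicase once it is active, had 42.4, 45.8, 43.6 and 42.8 CPM in cytosolic RNA at 16 h + PERKi, against 17.0, 14.5, 15.8 and 16.5 CPM at 16 h. The groups did not overlap, with a log2 change of 1.45 ± 0.05 (adjusted p = 2.05e-13) and a TE change of -1.67 ± 0.08 (adjusted p = 1.08e-11). Cdt1, which brings the MCM ring to origins, varied widely between replicates, with cytosolic RNA of 19.6, 35.0, 27.8 and 26.6 CPM in the control libraries. Its cytosolic rise at 1 h was 0.77 ± 0.21 (adjusted p = 0.00594), while at 16 h and with inhibitor over 16 h it was 0.42 ± 0.21 and 0.41 ± 0.21, neither called. In Cdt1, Pold1 and Pold2, the cytosolic level was lowest in replicate 1 in both control cells and 16 h cells. The same held for Mcm2, Mcm5, Gins2, Pola2, Rfc2, Fen1 and E2f1, while in others, such as Orc6, Cdc6, Mcm4 and Mcm6, replicate 1 was highest in both. Across all genes, replicate 1 of control and of 16 h correlated at 0.871 after each condition's mean was subtracted. Without control replicate 1 the rises of Cdt1, Pold1 and Pold2 at 1 h were 0.64, 1.501 and 0.38, all still called. Without 16 h replicate 1 cytosolic Cdt1 was called higher than control at 16 h, at 0.58 (adjusted p = 0.016).

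**Figure D3:**
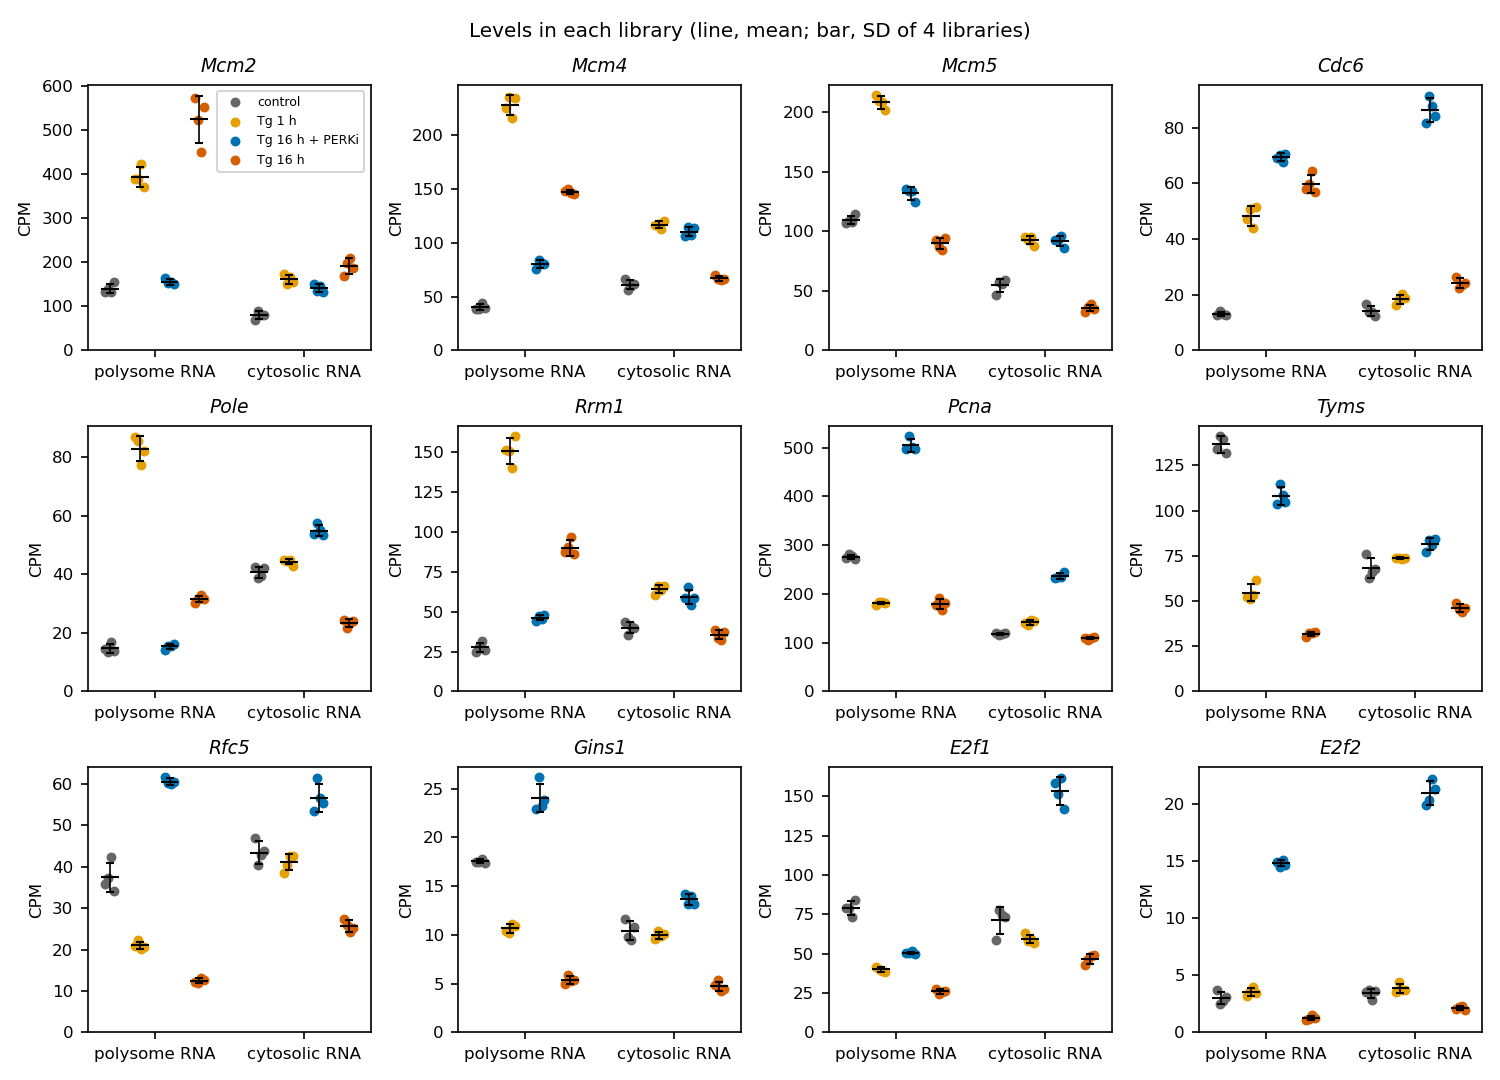
CPM in each library for 12 genes, polysome RNA at the left and cytosolic RNA at the right of each panel, with 4 libraries per condition, their mean (line) and SD (bar). Mcm2, Mcm4, Pole and Rrm1 peak in polysome RNA at 1 h or 16 h, while Pcna, Rfc5, Gins1 and E2f2 peak at 16 h + PERKi in both kinds of RNA.

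The helicase activators Cdc45 and Gins1 to Gins4 rose with the inhibitor in both kinds of RNA. All 5 were called higher at 16 h + PERKi than at 16 h in each kind, against 42.2% of all genes in cytosolic and 42.1% in polysome RNA. Their log2 changes were 0.32 (Gins4) to 1.82 (Gins2) in cytosolic RNA and 1.19 (Gins4) to 2.29 (Gins2) in polysome RNA. At 1 h cytosolic RNA of the 4 GINS genes was within -0.06 to 0.13 of control on the log2 scale, with none called. Gins2 had 32.0, 27.6, 29.1 and 29.3 CPM in polysome RNA at 16 h + PERKi, against 5.24, 6.88, 5.01 and 6.95 CPM at 16 h. Gins3 had 22.5, 23.9, 25.5 and 26.1 CPM at 16 h + PERKi, against 6.48, 7.03, 7.06 and 6.11 CPM at 16 h. Neither gene's groups overlapped, with log2 changes of 2.29 ± 0.09 and 1.88 ± 0.09 (adjusted p = 5.24e-15 and 4.41e-14). In cytosolic RNA Gins3 had 32.6, 34.3, 32.6 and 34.6 CPM at 16 h + PERKi, against 12.5, 11.51, 11.0 and 12.1 CPM at 16 h. Gins2 had 38.6, 35.2, 38.7 and 32.5 CPM at 16 h + PERKi, against 8.22, 11.1, 11.2 and 10.7 CPM at 16 h. Their inhibitor libraries lay apart from the 16 h libraries, with changes of 1.51 ± 0.07 and 1.82 ± 0.12 (adjusted p = 4.74e-12 and 3.7e-10). Cdc45, which binds GINS and the MCM ring to make the helicase, had 74.3 ± 2.70 CPM in cytosolic RNA at 16 h + PERKi and 27.9 ± 0.761 CPM at 16 h, a change of 1.41 ± 0.04 (adjusted p = 3.18e-14), and its TE did not pass the test there (-0.14 ± 0.07, adjusted p = 0.0856).

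Of the GINS genes, Gins1 (chr2:150905400-150931280, + strand) had the largest fall at 16 h over control. In cytosolic RNA it had 4.86, 5.33, 4.25 and 4.44 CPM at 16 h, against 11.6, 9.77, 9.48 and 10.8 CPM in control cells. In polysome RNA it had 4.99, 5.89, 5.23 and 5.36 CPM at 16 h, against 17.5, 17.5, 17.8 and 17.4 CPM in control cells. Neither pair overlapped, with log2 changes of -1.14 ± 0.08 and -1.71 ± 0.07 (adjusted p = 1.56e-09 and 2.7e-15). At 16 h + PERKi it had 13.6 ± 0.543 CPM in cytosolic RNA, above control in every library. The log2 ratio of Gins4 was 0.43, 0.67, 0.79 and 0.50 in control cells, -0.18, -0.16, -0.40 and -0.02 at 1 h and -0.15, 0.12, 0.24 and 0.08 at 16 h. It was 0.87, 0.93, 1.03 and 1.04 at 16 h + PERKi, above all libraries without inhibitor at 16 h and above control. The ratio of Gins1 was 0.99, 1.27, 1.32 and 1.10 in control cells, 0.51, 0.31, 0.52 and 0.46 at 1 h and 0.38, 0.51, 0.71 and 0.61 at 16 h, and that of Gins2 0.70, 0.02, 0.08 and 0.25 in control cells, -0.24, -0.36, -0.47 and -0.37 at 1 h and -0.30, -0.31, -0.72 and -0.26 at 16 h. Control libraries were the highest of the 3 groups in each of these genes. TE of Gins1, Gins2 and Gins4 was lower than control at 1 h and at 16 h and higher with the inhibitor than at 16 h, the largest of these changes being 0.89 ± 0.10 in Gins4 with inhibitor (adjusted p = 3.34e-07). TE of Gins3 rose by 0.39 with the inhibitor, a change that turned to -0.06 once TE was corrected for coding length. After that correction Gins4 with the inhibitor was at 0.44 and still called, while the calls of Gins2 with the inhibitor (0.15, adjusted p = 0.38) and of Gins4 at 16 h over control (-0.14, adjusted p = 0.256) were lost.

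The 9 polymerase and primase genes split in TE, with 5 lower and 2 higher with the inhibitor than at 16 h, against 33.7% and 26.4% of all genes. Lower were Pole, Pola1 (-1.84), Pold1 (-1.80), Pola2 (-0.94) and Prim2 (-0.65), higher were Pold2 and Pole2 (0.53), and Pold3 (-0.20) and Prim1 (-0.13) were not called. After correction for coding length Pold1 was at -1.22, Pola1 at -1.07 and Pold3, now called lower, at -0.29. Pole (chr5:110286306-110337474, + strand), the catalytic subunit of the leading strand polymerase epsilon, had the largest TE change of the 41 genes at 1 h, at 16 h and with the inhibitor over 16 h, before correction for coding length. After it Pole was at 1.14, 0.80 and -1.31 in these comparisons, smaller in size than Rrm1 at 1 h and 16 h (1.49 and 1.58) and than Cdc6 with the inhibitor (-1.40). Its log2 ratio was -1.14, -1.09, -0.79 and -1.18 in control cells, 1.34, 1.27, 1.13 and 1.29 at 1 h and 0.65, 0.91, 0.93 and 0.75 at 16 h. At 16 h + PERKi the ratio was -1.51, -1.49, -1.41 and -1.32, below every control library. The changes were 2.31 ± 0.09 at 1 h, 1.86 ± 0.09 at 16 h and -2.25 ± 0.09 with inhibitor over 16 h (adjusted p = 2.83e-13, 6.32e-12 and 1.8e-12). In polysome RNA Pole had 14.6, 13.4, 17.0 and 13.8 CPM in control cells, 86.9, 85.5, 77.5 and 82.4 CPM at 1 h and 30.3, 31.5, 33.1 and 31.5 CPM at 16 h, and 14.2, 15.7, 15.6 and 16.3 CPM at 16 h + PERKi. Those 16 h + PERKi libraries lay below all stressed libraries and overlapped control. In cytosolic RNA Pole ran the other way, with 53.7, 57.5, 55.3 and 53.3 CPM at 16 h + PERKi, against 24.6, 21.6, 23.2 and 23.9 CPM at 16 h, a log2 change of 1.24 ± 0.05 (adjusted p = 8.29e-13).

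Pola1, the catalytic subunit of polymerase alpha, which makes the first stretch of DNA on each primer, had 12.0, 12.2, 13.8 and 10.8 CPM in polysome RNA in control cells, 80.9, 76.0, 70.5 and 79.96 CPM at 1 h and 40.3, 42.4, 40.6 and 37.2 CPM at 16 h. At 16 h + PERKi it had 11.9, 11.3, 11.8 and 12.8 CPM, within the range of the control libraries. The log2 ratio of Pola1 was -1.35, -0.95, -0.90 and -1.21 in control cells, 1.03, 0.67, 0.73 and 0.75 at 1 h and 0.41, 0.61, 0.70 and 0.44 at 16 h, and -1.19, -1.48, -1.22 and -1.28 at 16 h + PERKi. It was above control in every library at 1 h and 16 h and overlapped control with the inhibitor. The TE changes were 1.903 ± 0.11, 1.64 ± 0.11 and -1.84 ± 0.11 for 1 h, 16 h and inhibitor over 16 h (adjusted p = 3.59e-11, 3.16e-10 and 1.11e-10). In cytosolic RNA Pola1 was 1 of the 5 genes not called with inhibitor over 16 h, at 0.11 ± 0.08 (adjusted p = 0.203). Its partner Pola2 and the primase genes Prim1 and Prim2, which make the RNA primers, rose in cytosolic RNA with the inhibitor, by 1.09, 1.13 and 0.62. Prim1 had 53.2, 56.6, 51.5 and 58.3 CPM at 16 h + PERKi, against 28.1, 21.6, 24.1 and 26.4 CPM at 16 h, with no overlap (adjusted p = 9.66e-09).

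Pold1, the catalytic subunit of the lagging strand polymerase delta, rose at 1 h, with a wide spread between libraries. In cytosolic RNA it had 34.4, 22.4, 29.2 and 23.2 CPM at 1 h, against 4.78, 12.1, 8.90 and 8.02 CPM in control cells. All 1 h libraries exceeded all control libraries, with a log2 change of 1.69 ± 0.27 (adjusted p = 6.55e-05). In polysome RNA it had 47.7, 44.0, 60.5 and 34.6 CPM at 1 h, against 10.2, 11.48, 7.19 and 13.5 CPM in control cells. The log2 ratio of Pold1 was -0.45, 0.05, -0.35 and -0.56 at 16 h + PERKi, against 2.42, 1.16, 0.49 and 1.82 at 16 h. All inhibitor libraries lay below all 16 h libraries, and the TE change was -1.80 ± 0.37 with inhibitor over 16 h (adjusted p = 0.000598). The accessory subunit Pold2 had lower TE than control under stress, with -1.504 ± 0.21 at 1 h and -1.29 ± 0.21 at 16 h (adjusted p = 9.41e-06 and 4.77e-05), and higher TE with inhibitor over 16 h, by 0.74 ± 0.20 (adjusted p = 0.00525). Pold3 and Pole2, further accessory subunits of delta and epsilon, rose with the inhibitor in cytosolic RNA by 1.04 and 1.11 and in polysome RNA by 0.82 and 1.62.

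Of the 9 clamp, loader and single-strand binding genes, Pcna, Rfc2, Rfc3, Rfc4, Rfc5 and Rpa2 were lower than control in polysome RNA at 1 h and at 16 h, against 38.5% and 42.9% of all genes, and all 6 rose with the inhibitor over 16 h, against 42.1%. In that comparison Rfc1 and Rpa3 rose too and Rpa1 fell, by 0.13 on the log2 scale. The call of Rpa3, at 0.18 ± 0.07, was lost without 16 h replicate 1 (0.14) or 4 (0.14) or without 16 h + PERKi replicate 2 (0.17), 3 (0.12) or 4 (0.17). TE was lower than control for 7 of the 9 at 1 h and for 7 at 16 h, and higher for 7 with inhibitor over 16 h, against 34.4%, 33% and 26.4% of all genes. After correction for coding length the sign of Pcna turned in the last 2 comparisons, and the call of Rfc4 with the inhibitor was lost (0.46 before, 0.16 after). Pcna, the sliding clamp, had 497, 525, 501 and 498 CPM in polysome RNA at 16 h + PERKi, against 178, 191, 167 and 182 CPM at 16 h. It had 178, 184, 183 and 181 CPM at 1 h, against 274, 282, 278 and 271 CPM in control cells. Both stressed groups lay below control and the inhibitor group above it, with log2 changes of 1.49 ± 0.04 for inhibitor over 16 h and -0.61 ± 0.04 for 1 h over control (adjusted p = 7.52e-18 and 1.63e-11).

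Rfc2 (chr5:134581366-134601805, + strand) and Rfc5, small subunits of the clamp loader, had the largest changes of these 9 genes in polysome RNA with the inhibitor over 16 h. Rfc2 had 71.2, 70.6, 68.1 and 68.5 CPM in polysome RNA at 16 h + PERKi, against 12.4, 13.8, 11.7 and 14.5 CPM at 16 h. Rfc5 had 61.7, 60.1, 59.9 and 60.4 CPM at 16 h + PERKi, against 12.3, 11.8, 13.2 and 12.7 CPM at 16 h. In both genes the inhibitor libraries lay several times above the 16 h libraries and also above control, with log2 changes of 2.41 ± 0.06 and 2.27 ± 0.06 over 16 h (adjusted p = 1.97e-18 and 1.07e-17). In cytosolic RNA Rfc2 had 58.7, 61.6, 59.8 and 58.4 CPM at 16 h + PERKi, against 20.9, 22.3, 25.0 and 25.9 CPM at 16 h. Rfc5 had 53.4, 61.3, 56.6 and 55.3 CPM at 16 h + PERKi, against 27.4, 25.97, 24.1 and 25.1 CPM at 16 h. The groups did not overlap in either gene. In cytosolic RNA these changes were 1.34 ± 0.07 and 1.14 ± 0.06, and in TE 1.09 ± 0.07 and 1.16 ± 0.10, all called. The log2 ratio of Rfc2 was 0.81, 0.69, 0.69 and 0.73 in control cells, -0.15, -0.22, -0.23 and -0.20 at 1 h and -0.40, -0.32, -0.67 and -0.48 at 16 h, and control libraries were the highest of these.

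TE of the loader subunits Rfc3 and Rfc4 dropped early. The log2 ratio of Rfc3 was 1.52, 1.75, 1.82 and 1.62 in control cells, 0.39, -0.01, 0.10 and 0.31 at 1 h and 0.38, 0.70, 0.68 and 0.44 at 16 h. That of Rfc4 was 1.24, 1.72, 1.74 and 1.52 in control cells, 0.33, -0.14, 0.18 and 0.20 at 1 h and -0.04, 0.56, 0.81 and 0.51 at 16 h. Control libraries lay above all stressed libraries in both genes, with changes at 1 h of -1.48 ± 0.10 and -1.41 ± 0.15 (adjusted p = 1.87e-10 and 9.62e-08). Rfc1, the large loader subunit, rose in cytosolic RNA by 0.43 at 1 h and 0.47 at 16 h and was not called with inhibitor over 16 h, at -0.06 ± 0.08 (adjusted p = 0.529).

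The 3 subunits of replication protein A, which coats single-stranded DNA, are given next in cytosolic RNA. Rpa1 rose at 1 h by 0.68 ± 0.04 and was at 0.04 ± 0.04, not called, at 16 h. Rpa2 rose at each step, with 86.7, 92.3, 83.2 and 81.0 CPM at 16 h + PERKi, against 42.6, 40.0, 44.2 and 40.97 CPM at 16 h, and 28.9, 30.1, 30.9 and 32.7 CPM at 1 h, against 25.1, 26.7, 25.8 and 26.7 CPM in control cells. None of these groups overlapped, and the inhibitor group differed from control by 1.72 ± 0.05 (adjusted p = 3.13e-14). In polysome RNA Rpa2 had 175, 174, 168 and 174 CPM at 16 h + PERKi, against 44.8, 47.2, 46.6 and 52.6 CPM at 16 h, and 29.5, 32.9, 32.5 and 34.6 CPM at 1 h, against 56.1, 54.1, 58.7 and 55.4 CPM in control cells. Unlike in cytosolic RNA, its 1 h and 16 h libraries lay below control here, and the change with inhibitor over 16 h was 1.85 ± 0.05 (adjusted p = 2.09e-17). Rpa3 fell in cytosolic RNA at 1 h by 0.30 on the log2 scale and rose at 16 h by 0.80 ± 0.07 (adjusted p = 0.00221 and 1.62e-08), with no call for inhibitor over 16 h (0.06 ± 0.07, adjusted p = 0.457).

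Of the lagging strand enzymes, Lig1 (chr7:13277283-13311433, + strand), the ligase that joins Okazaki fragments, had opposite changes early and late. In cytosolic RNA it had 20.4, 26.5, 25.1 and 26.2 CPM in control cells, 42.9, 37.4, 39.9 and 37.6 CPM at 1 h and 11.6, 10.5, 11.1 and 11.3 CPM at 16 h. The 1 h libraries were all above control and the 16 h libraries all below it, with log2 changes of 0.68 ± 0.07 and -1.15 ± 0.08 over control and -1.83 ± 0.08 for 16 h over 1 h (adjusted p = 4.99e-07, 3.58e-10 and 8.36e-13). With the inhibitor at 16 h it had 34.8, 35.6, 35.1 and 34.1 CPM, a change over 16 h of 1.65 ± 0.08 (adjusted p = 3.72e-12). In polysome RNA Lig1 reached 123.9, 127.9, 126.6 and 123.7 CPM at 1 h, against 31.9, 29.9, 31.5 and 31.9 CPM in control cells, with a log2 change of 2.00 ± 0.04 (adjusted p = 4.04e-19). TE of Lig1 was -1.53 ± 0.09 with inhibitor over 16 h (adjusted p = 5.93e-11).

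Fen1, the nuclease that trims the flaps of Okazaki fragments, had 114, 110.4, 111.8 and 106.5 CPM in cytosolic RNA at 16 h + PERKi, against 30.9, 36.0, 33.9 and 35.7 CPM at 16 h. In polysome RNA it had 216, 210.3, 215 and 206 CPM at 16 h + PERKi, against 84.3, 76.3, 70.8 and 83.1 CPM at 16 h. The inhibitor libraries were the highest in both kinds of RNA, with log2 changes of 1.70 ± 0.06 and 1.43 ± 0.05 (adjusted p = 5.83e-14 and 2.77e-16). At 16 h over control cytosolic Fen1 was -0.04 ± 0.06, not called.

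Among the nucleotide genes, TE of Rrm1 rose and TE of Tyms fell under stress. Rrm1 (chr7:102441695-102469771, + strand), the large subunit of ribonucleotide reductase, which makes deoxynucleotides from ribonucleotides, had a log2 ratio of -0.40, 0.07, 0.05 and -0.18 in control cells, 1.72, 1.53, 1.49 and 1.62 at 1 h and 1.53, 1.80, 2.00 and 1.56 at 16 h. The TE changes were 1.70 ± 0.11, 1.84 ± 0.11 and, with inhibitor over 16 h, -1.68 ± 0.11 (adjusted p = 2.02e-10, 9.12e-11 and 4.31e-10). In polysome RNA Rrm1 had 151, 151, 140.2 and 159.9 CPM at 1 h, against 24.8, 27.6, 31.6 and 26.1 CPM in control cells. Tyms, thymidylate synthase, which makes the thymine nucleotide, had the reverse pattern, with ratios of 1.23, 1.61, 1.496 and 1.38 in control cells, -0.11, -0.20, -0.12 and 0.09 at 1 h and -0.36, -0.12, -0.03 and -0.14 at 16 h. Its TE changes were -1.51 ± 0.09, -1.59 ± 0.09 and, with inhibitor over 16 h, 0.97 ± 0.09 (adjusted p = 4.71e-11, 3.09e-11 and 3.46e-08). Stressed libraries lay all above control for Rrm1 and all below it for Tyms.

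Tyms in polysome RNA had 103.6, 114.6, 108.9 and 105 CPM at 16 h + PERKi, against 29.8, 32.4, 32.1 and 32.7 CPM at 16 h, with no overlap and a log2 change of 1.77 ± 0.06 (adjusted p = 1.14e-16). In cytosolic RNA Tyms had 77.1, 83.6, 81.3 and 84.4 CPM at 16 h + PERKi, against 48.9, 45.7, 44.0 and 45.9 CPM at 16 h, and Rrm1 had 58.3, 65.2, 54.4 and 58.3 CPM at 16 h + PERKi, against 38.4, 33.7, 32.4 and 37.2 CPM at 16 h. Neither gene's groups overlapped, with log2 changes of 0.82 ± 0.05 and 0.74 ± 0.07 (adjusted p = 4.35e-10 and 6e-08). Rrm2, the small subunit of ribonucleotide reductase, had its largest change in cytosolic RNA with the inhibitor. It had 182, 185, 177 and 191 CPM in cytosolic RNA at 16 h + PERKi, against 47.8, 46.7, 47.6 and 47.5 CPM at 16 h, and 83.3, 66.7, 72.9 and 71.7 CPM in control cells. The inhibitor libraries lay far above every other library, with a change over 16 h of 1.95 ± 0.06 (adjusted p = 1.48e-14). In polysome RNA Rrm2 had 264, 282, 269.5 and 271 CPM at 16 h + PERKi, against 77.8, 83.4, 78.8 and 75.4 CPM at 16 h, again with no overlap. In TE that comparison gave -0.15 ± 0.08 (adjusted p = 0.118), not called.

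Across the 41 genes, TE changes went with the length of the coding sequence, as they did more weakly across all genes. For inhibitor over 16 h Spearman's rho with coding length was -0.80 over the 41 genes (Pearson's r -0.79, with log length) and -0.44 over 12407 genes. At 16 h over control it was 0.72 (Pearson 0.69) and 0.39, and at 1 h over control 0.72 (Pearson 0.70) and 0.31. These are descriptions across genes, which share the same libraries. The 14 genes with over 2000 coding nt had a median TE change of -1.55 with inhibitor over 16 h, against -0.66 for all genes of that length. Of these, 13 were called lower, against 33.7% of all genes of any length. The 9 under 1000 nt had a median of 0.65, against 0.24, and 8 were called higher, against 26.4% of all genes of any length. At 16 h over control those medians were 1.10 for the long genes and -0.56 for the short ones, against 0.56 and -0.32 for all genes of the same lengths.

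**Figure D4:**
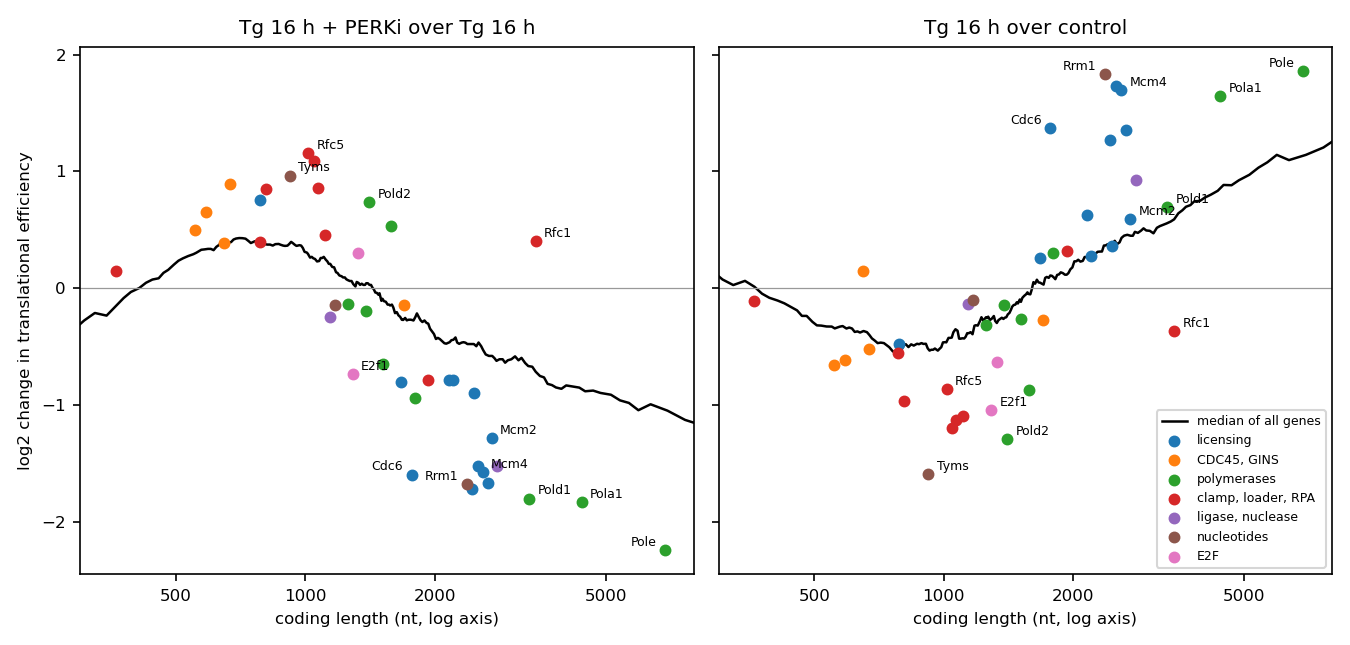
Log2 change in TE against coding length (log axis) for the 41 genes, coloured by role, with the running median of all genes as a black line, with 16 h + PERKi over 16 h at the left, 16 h over control at the right. Most long genes, such as Pole, lie below the line at the left and above it at the right. Mcm5 and Mcm6 lie close to the line at the right, and Rfc1, with 0.40 and -0.36, is the long gene on the other side of both lines.

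When TE was fitted with offsets that take out the trend with coding length, 12 genes were higher and 21 lower with inhibitor over 16 h (median -0.41). Over all 12561 genes tested, 3082 were higher and 3705 lower there. At 16 h over control 15 replication genes were higher and 13 lower (median 0.06), against 4023 higher and 3679 lower over all genes. With inhibitor over 16 h Pole was at -2.25 before and -1.31 after, Mcm4 at -1.58 before and -1.07 after, Rrm1 at -1.68 before and -1.31 after and Cdc6 at -1.60 before and -1.40 after. Among genes with higher TE, Rfc5 was at 1.16 before and 0.82 after, Tyms at 0.97 before and 0.50 after, and Orc6 at 0.75 before and 0.28 after. These 7 were still called. Calls were lost in Gins2, Gins3, Pcna, Rfc4 and Cdt1, Pcna being at 0.40 before and -0.08 after, and gained in Rpa3 (0.30), Rrm2 (-0.41) and Pold3. At 16 h over control the fall of Pcna by 0.56 became 0.03, not called. There the calls of higher TE were also lost in Mcm2 (0.59 before, 0.14 after), Mcm5 (0.27 before, 0.001 after) and Mcm6 (0.36 before, 0.06 after). Calls of lower TE were lost in Orc6, Gins4, Prim2 and E2f2 too, and Gins3 (0.52), Fen1 (0.25) and Rrm2 (0.30) were now called higher.

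Genes of the same pathways outside the 41 were counted in 5 further lists, in cytosolic RNA with the inhibitor over 16 h. Of 17 other fork factors 15 rose and 1 fell, of 17 regulators of the G1 to S step 13 rose and 2 fell, and of 10 genes for chromatin assembly behind the fork 8 rose and 2 fell, against 42.2% and 32.5% of all genes. Of 14 other genes of nucleotide supply 7 rose and 3 fell, and of 15 other origin and firing factors 6 rose and 7 fell, so the share that rose there is near that of all genes. The median log2 changes of these lists, in the same order, were 0.98, 1.02, 1.16, 0.16 and -0.01, beside 0.10 for all genes. At 16 h over control the counts higher and lower were 4 and 9, 3 and 10, 3 and 6, 8 and 3, and 7 and 7, against 37.9% and 39.4% of all genes.

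The genes of these lists named here are those with the smallest p at 16 h over control, up to 2 in each direction per list. Both comparisons given for them use the same 16 h libraries. Genes chosen by their change at 16 h therefore lean towards the opposite sign with inhibitor over 16 h. Tk1, the thymidine kinase of S phase, was at -2.58 at 16 h over control and 2.75 with inhibitor over 16 h. In the same order of comparisons, Ccna2, a cyclin of S and G2 phase, was at -2.06 and 1.66. E2f8, a repressive E2F factor, was at -1.40 and 2.63. Top2a, a topoisomerase that untangles DNA, was at -1.07 and 1.35, and Cdc7, the kinase that fires origins, at -1.61 and 2.40. Uhrf1, which helps to copy DNA methylation, was at -1.10 and 2.43. In the other direction, the ORC subunit gene Orc2 was at 1.81 and -1.95, unlike Orc1, and the p53-inducible reductase subunit Rrm2b at 0.80 and -0.95, unlike Rrm2. All of these log2 changes passed the edgeR test. Further genes higher at 16 h than in control cells were Cdca7 (0.83), Asf1a (1.07), Tfdp2 (0.57), Rb1 (0.51), Mtbp (0.81), Dut (0.58), Rnaseh2a (0.43) and Chtf8 (0.41), and further lower ones were Chaf1a (-0.86), Donson (-1.24), Rnaseh2b (-1.07) and Dtymk (-0.17). With inhibitor over 16 h, Chaf1a, which deposits histones behind the fork, was at 1.75, and Asf1a, a histone chaperone that hands histones to it, was at -0.52. The inhibitor changes of the other further genes are not listed, and not all were called in the opposite direction. Only 1 of the 17 other fork factors fell with the inhibitor, although Rnaseh2a and Chtf8 were each higher at 16 h.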

How the data were processed

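Whole-number counts per gene in 32 libraries were used as deposited. Per the submitters' processing notes, the authors aligned reads with HISAT to mm10 and used DESeq2 1.9.23; no source used here gives the counting tool, annotation or strand setting. The labels describe a sucrose gradient and a TruSeq preparation. Genes were kept by edgeR's filterByExpr (minimum count 10, minimum total 15) and scaled by TMM, within each kind of RNA for cytosolic and polysome levels. For TE and the log2 ratios, the filter and TMM factors were taken over all 32 libraries together. The 0 of a log2 ratio therefore depends on that joint scaling. Tests used edgeR 4.0.16 (glmQLFit, robust, glmQLFTest) with Benjamini-Hochberg adjustment over all genes tested, in 1 fit of the 4 conditions. TE was tested over all 32 libraries with the sample as a block, because both libraries of a sample come from the same cells. After each condition's mean was subtracted, the 2 libraries of a sample correlated unevenly, from -0.667 to 0.463 (median 0.155), and over 0.1 in 9 of 16 samples. Without the sample block, 201 of 205 TE results kept their call. Errors of log2 changes are standard errors. Each log2 ratio of a sample uses a prior count of 2. Coding lengths came from GENCODE vM21. The scripts were tested on simulated data. The 41 genes, the role groups and the 5 further lists were chosen with earlier results of these data known. Per-library values are given for up to 3 genes per role and measure, those with the largest absolute log2 change over the 5 comparisons, and for a few others chosen after their values were seen (Pcna, Mcm2, Mcm5 and Cdt1). From each further list, up to 2 genes per direction with the smallest p at 16 h over control were named. Alternatives were relative log expression factors, no low-count filter, DESeq2 1.42.0, the replicate block, no sample block, offsets for coding length, only the compared conditions, and leaving out each library. For TE each sample was left out with both its libraries.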

Additional observations from a re-analysis of the deposited data

Results flagged for a closer look

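In 18 of 328 groups of 4 libraries, 1 library lay far from the other 3 of its group by Dixon's ratio of gap to range, about the 1 in 20 that chance gives. In cytosolic RNA these were 16 h replicate 1 for Cdc45 (29.06 CPM, the others 27.4 to 27.7) and for Gins2 (8.22 CPM, the others 10.7 to 11.2), control replicate 1 for Gins4 (34.05 CPM, the others 28.2 to 29.1), 16 h + PERKi replicate 2 for Pold3 (44.63 CPM), 1 h replicate 4 for Pole (43.05 CPM) and control replicate 3 for E2f2 (2.803 CPM). In polysome RNA, control replicate 3 was high for Mcm6 (265.5 CPM, the others 221 to 223), Pold3 (28.09 CPM) and Rpa1 (289.9 CPM, the others 258 to 261). In the same RNA, replicate 3 at 16 h was high for Rfc1 (77.94 CPM) and Rfc3 (38.88 CPM), and replicate 3 at 1 h for Pola2 (83.81 CPM). Mcm5 was high in control replicate 4 (114.8 CPM) and low in 16 h + PERKi replicate 4 (124.1 CPM), Lig1 was low in replicate 2 at 16 h + PERKi (28.73 CPM) and at 16 h (26.65 CPM), Pcna was high in 16 h + PERKi replicate 2 (524.5 CPM), and Rpa2 was low in 16 h + PERKi replicate 3 (167.6 CPM).

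In 16 results the change over control was called in opposite directions at 1 h and 16 h, and the direct test of 16 h over 1 h was called. These were 13 of the 41 genes in cytosolic RNA (31.7%, against 13.3% of all genes), 2 in polysome RNA (4.88%, against 11.6%) and 1 in TE (2.44%, against 0.541%). In cytosolic RNA 12 genes were higher at 1 h and lower at 16 h, with log2 changes of 16 h over 1 h of -1.138 for Orc1, -1.376 for Mcm5, -1.181 for Mcm10, -0.696 for Prim2, -0.9283 for Pole, -0.9795 for Pole2, -0.3783 for Pcna, -0.7798 for Rfc2, -0.6216 for Rfc4, -1.83 for Lig1, -0.8557 for Rrm1 and -0.8118 for Rrm2. Rpa3 went the other way, at 1.093. In polysome RNA Mcm5 was at -1.214 and Lig1 at -2.166, again higher than control at 1 h and lower at 16 h, and in TE Rpa1 was at 0.5457, lower at 1 h and higher at 16 h. Of these calls over control, those of Pole at 1 h and of Rfc4 and Rrm1 at 16 h were lost in some fits that left out 1 library.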

How the results depend on the processing

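Of the 496 calls on single genes among 615 tests, 455 were kept whichever library was left out (for TE, whichever sample with both its libraries). The other 41 were lost in at least 1 such fit, with a median absolute log2 change of 0.194. Offsets for coding length turned the sign of TE for Prim1 (0.028) and Rrm2 (0.18) at 1 h over control, for Orc6 (0.084), Pcna (0.026), Fen1 (0.25) and Rrm2 (0.30) at 16 h over control, and for Gins3 (-0.059) and Pcna (-0.084) with inhibitor over 16 h. With these offsets 167 of 205 TE results kept their direction and side of the threshold, 21 lost a call and 9 gained one. They also took the count with lower TE at 16 h + PERKi over control to 15, where it was 25. In TE, leaving out 1 sample gave 3 to 8 genes higher at 16 h over 1 h and 2 to 5 at 16 h + PERKi over control, where each count was 4. Lower genes in that last comparison numbered 18 to 23, where the count was 25. Against the 615 results, 588 kept their call with DESeq2, 589 with relative log expression factors, 588 when only the compared conditions were fitted and 596 with no low-count filter. Same-numbered samples of 2 conditions correlated unevenly, from 0.0226 to 0.871 for cytosolic 16 h with control and from 0.336 to 0.645 for 16 h + PERKi with 1 h, which were not compared, but from -0.713 to 0.592 for 16 h + PERKi with 16 h. In none of the 5 comparisons were all 4 pairs over 0.1, and a sample correlated best with its own number in 14 of 48 cases in cytosolic and 12 of 48 in polysome RNA, so the numbers were not used as a pairing. With the replicate block, 9101 genes were called in cytosolic RNA for inhibitor over 16 h, against 9239 without it, and 404 of 410 single-gene results kept their call. Depth was enough for all 41 genes to pass the filter; p-values rest on 4 libraries per group.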
